A study of Mus musculus with 12 samples.

Results

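Integrins and the proteins of focal adhesions were followed in 6 populations of sorted cells of newborn mouse back skin. The members were every gene of the expression data whose symbol begins with Itga or Itgb, without the Itgb1bp and Itgbl genes (3 rows left out). Added to these were 14 named proteins of the adhesion plaque: Vcl, Tln1, Tln2, Pxn, Ilk, Parva, Parvb, Fermt1, Fermt2, Fermt3, Ptk2, Zyx, Lims1 and Lims2. The rule found 42 of the 19150 genes in the table, of which 18 begin with Itga and 10 with Itgb. It also took in Itgb3bp, which encodes a centromere protein and not an integrin chain. The rule itself reads names alone, but it was drawn up with earlier results of these data known.

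Integrins are receptors made of an alpha and a beta chain that span the cell membrane and hold the cell to the surrounding matrix. The alpha chain largely sets which ligand is bound (collagens, laminins, or proteins with an Arg-Gly-Asp motif such as fibronectin), and the beta chain recruits talin and kindlin inside the cell. Vinculin and the complex of integrin-linked kinase, PINCH (Lims1 or Lims2) and parvin then join the receptor to actin filaments, so that a contractile cell can pull on its matrix. In the hair follicle, the dermal sheath is the layer of contractile mesenchymal cells around the epithelium, and the dermal papilla is the mesenchymal core at its base. The outer root sheath is the outer epithelial layer, and the matrix is the dividing epithelium that makes the hair shaft.

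The study, on contraction of the dermal sheath during regression of the hair follicle, sorted these 4 populations together with dermal fibroblasts and melanocytes from dorsal skin of CD1 mice at postnatal day 5. No genotype or treatment is given, so all 6 groups share strain, age and tissue, and each has 2 RNA sequencing libraries. The gates of the sort are not given in the sources used here. No label says that the libraries came from separate animals, so p-values measure only the spread between libraries, which may be technical. The labels give 6 barcoded adapters for 3 samples in 2 replicates, so the dermal libraries and the other 6 may have been prepared apart. In a comparison across them preparation and population cannot be told apart.

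Values are the authors' FPKM, fragments scaled to transcript length and library size, and can be compared between genes. Their sums ran from 373066 to 524040 per library with 10951 to 12413 genes at 1 FPKM or more. Populations were checked by marker lists. The 4 dermal sheath markers (Acta2, Tagln, Myh11, Cnn1) summed to 1008 to 1633 FPKM in the sheath and to at most 144 elsewhere, the highest being outer root sheath. The 5 papilla markers summed to 1764 to 2054 in the papilla and at most 200.4 elsewhere. The 4 fibroblast markers summed to 1868 to 2907 in fibroblasts and at most 1153 elsewhere. Of these Pdgfra alone was lower in fibroblasts (56.0 and 69.5 FPKM) than in sheath (177 and 236) and papilla (142 and 192). The 5 outer root sheath markers summed to 4152 to 4180 there and at most 1644 elsewhere. For the 5 matrix markers present these sums were 590 to 613 and at most 148.7. The fibroblast libraries stood apart: their 8 melanocyte markers summed to 7205 and 7671 FPKM, against 13499 to 16279 in melanocytes and at most 104.7 in any other population, with none of the 8 at 0. On the median of 6 of these markers, the fibroblast libraries held 47.7% and 43.9% of the melanocyte level. The single markers differed widely, so this share is only roughly fixed. Tyr was at 232 and 380 FPKM in fibroblasts against 1240 and 1668 in melanocytes, and Mlana at 3369 and 3140 against 5040 and 5033. The fibroblast comparisons were repeated after the median share of the melanocyte profile was subtracted, both as it stood and with the remainder rescaled. Values that would have become negative were set to 0. The rescaling was chosen after seeing the data.

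Of the 42 members, 35 reached 1 FPKM in at least 1 library and 7 did not. Counting the 33 members with a population mean of at least 1 FPKM, the highest mean was in the dermal sheath for 14, in the outer root sheath for 12, in dermal fibroblasts for 4, in the papilla for 2, in melanocytes for 1 and in the matrix for 0. In 10 of the 14 sheath members and 11 of the 12 outer root sheath members, both libraries lay above all other 10 libraries. Most of the members at this level thus had their highest mean in the dermal sheath or in the epithelial layer it wraps. The matching shares over all genes were not taken, so these counts describe the members and mark nothing particular to them.

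**Figure D1:**
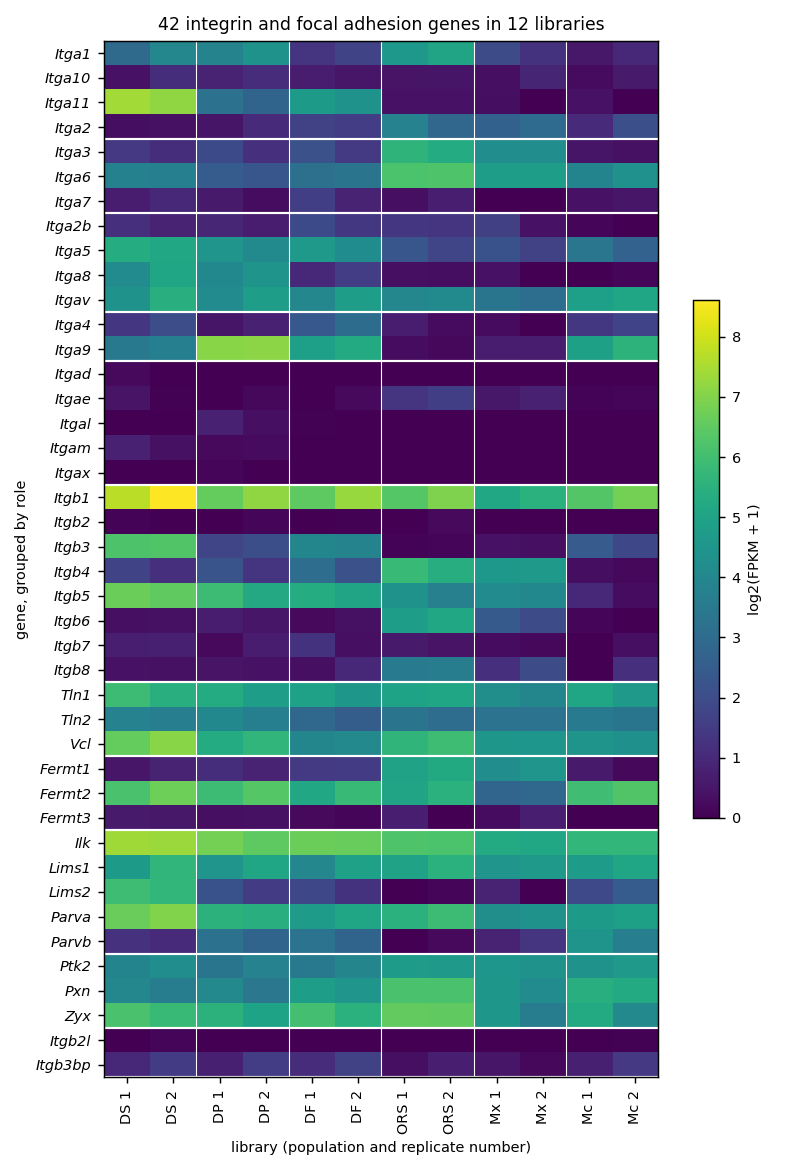
Level of each of the 42 members (rows, grouped by role) in each of the 12 libraries (columns: DS dermal sheath, DP dermal papilla, DF dermal fibroblasts, ORS outer root sheath, Mx matrix, Mc melanocytes, with the replicate number), coloured by log2(FPKM + 1). Itga11 and Itgb1 are brightest in the sheath, Itga9 in the papilla, Itga6 in the outer root sheath, and the leukocyte chains (Itgad to Itgax, Itgb2) are dark in all 12 columns.

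Promoters are shown for 3 members that set the sheath apart from one or both of the other dermal populations: Itga11, a collagen receptor chain, Itga8, an Arg-Gly-Asp receptor chain, and Vcl, which encodes vinculin. Each is the 250 bases before the RefSeq transcription start (GRCm38.p6, the build also called mm10), read 5′ to 3′ on the gene's strand, with capitals marking a CArG box, the site known for serum response factor in contractile genes.
Vcl, chr14:20929148-20929397, plus strand: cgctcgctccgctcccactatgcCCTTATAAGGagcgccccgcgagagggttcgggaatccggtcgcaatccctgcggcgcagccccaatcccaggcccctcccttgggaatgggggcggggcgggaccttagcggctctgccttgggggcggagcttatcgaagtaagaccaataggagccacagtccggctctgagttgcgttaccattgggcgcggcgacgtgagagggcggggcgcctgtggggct
Itga8, chr2:12301945-12302194, minus strand: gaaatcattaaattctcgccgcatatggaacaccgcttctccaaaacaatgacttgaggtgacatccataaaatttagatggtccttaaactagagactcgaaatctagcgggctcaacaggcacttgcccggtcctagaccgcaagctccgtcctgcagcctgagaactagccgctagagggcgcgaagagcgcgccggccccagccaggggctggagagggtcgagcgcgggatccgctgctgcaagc
Itga11, chr9:62677605-62677854, plus strand: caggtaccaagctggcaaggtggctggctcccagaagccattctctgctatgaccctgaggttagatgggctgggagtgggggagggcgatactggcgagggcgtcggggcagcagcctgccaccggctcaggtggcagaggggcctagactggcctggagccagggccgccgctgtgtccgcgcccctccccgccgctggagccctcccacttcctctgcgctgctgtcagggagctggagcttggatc
Of these, only the Vcl window holds a CArG box, which starts at position -227 from the transcription start, and the box reads the same on both strands. RefSeq promoters were found for 29 of the 42 members, at 34 starts, and 3 of the 34 windows (8.82%) held the box: Vcl, Fermt2 and 1 start of Itgb6. Of 32851 promoters on record for the genome 1.47% held it. The letters GGAATG, the core site of TEAD factors, on either strand were in 3 of the 34 windows (8.82%; Vcl, Itga10 and Itgb1) against 12.6% of all promoters, and they do not overlap the CArG box. A match is a run of letters and no measured site.

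Dermal sheath was first compared with dermal fibroblasts, dermal sheath with dermal papilla, and papilla with fibroblasts, which asks how the contractile layer differs from its mesenchymal neighbours. Against fibroblasts, the sheath had more Lims2, Itga8, Vcl, Itga11, Itgb3, Parva, Itga1, Itgb5 and Tln2 and less Parvb, Itga9 and Itga2. Against the papilla it had more Itgb3, Itga11, Lims2, Vcl, Parva, Itga6 and Itgb5 and less Itga9 and Parvb. The papilla had more Itga8, Itga1, Itga9, Vcl and Tln2 than fibroblasts and less Itga4, Itgb3 and Itga11. All differences are log2(FPKM + 1) values, a scale on which low genes differ by less than on their own. A gene was called at an adjusted p under 0.05 (limma, Benjamini-Hochberg over all genes tested) with a difference of at least 1.

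Of the 30 members tested in the dermal libraries, 9 were called higher in the sheath than in fibroblasts and 3 lower, where 7.56% and 6.6% of the 13219 genes tested were called. Their median difference was 0.61, against -0.02 over all genes. Sheath minus papilla gave 7 higher and 2 lower members, with 7.96% and 7.56% of all genes, and medians of 0.41 and -0.09. Papilla minus fibroblasts gave 5 higher and 3 lower, with 8% and 7.16% of all genes, and medians of -0.03 and 0.06. Of the members tested, 30%, 23.3% and 16.7% were called higher in these 3 comparisons, in each case above the share over all genes. The shares called lower, 10%, 6.67% and 10%, were nearer to it. These comparisons share libraries, so their values are set side by side only. In bulk RNA, fewer cells of a type and less RNA per cell cannot be told apart.

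**Figure D2:**
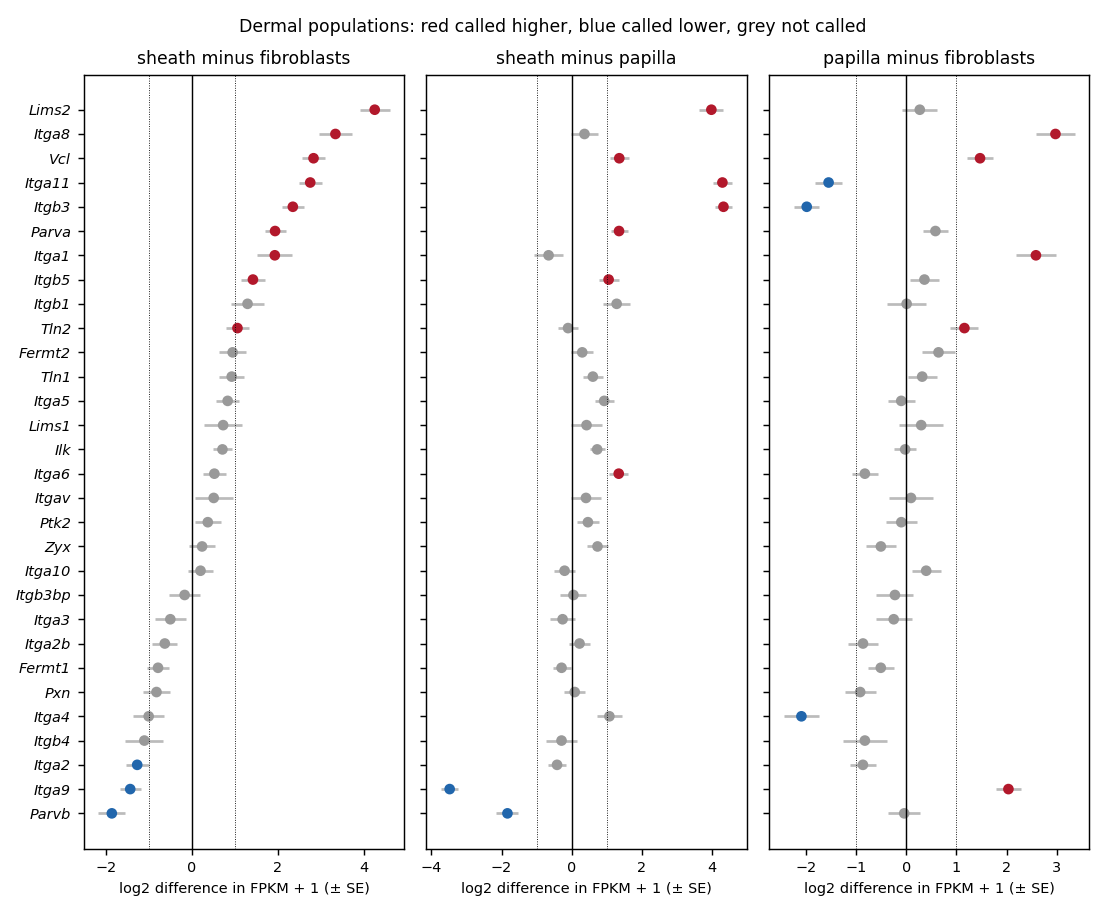
Difference of each of the 30 tested members on the log2(FPKM + 1) scale (points, with bars of 1 SE) in the 3 dermal comparisons, ordered by sheath minus fibroblasts; red and blue mark members called higher and lower, and dotted lines mark the threshold of 1. Lims2, Itga11 and Itgb3 lie far to the right in both sheath panels, whereas Itga8 is right of 0 against fibroblasts (3.34) and near 0 against the papilla (0.36).

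Of the 4 collagen-binding alpha chains, Itga11 peaked in the dermal sheath, Itga1 and Itga2 in the outer root sheath, and Itga10 was low everywhere. Itga11 (chromosome 9:62677826-62783982, mm10), the main receptor for fibrillar collagen on fibroblasts, measured 171 and 143 FPKM in the 2 dermal sheath libraries, 25.1 and 19.9 in fibroblasts, 8.41 and 5.79 in the papilla and at most 0.351 in the other 6. Both sheath libraries lay above every other library, and the 3 dermal populations did not overlap. The difference was 2.75 ± 0.27 (SE) over fibroblasts (adjusted p = 0.000438, 6.74-fold) and 4.30 ± 0.27 over the papilla (adjusted p = 9.78e-05, 19.7-fold). The papilla lay below fibroblasts (-1.54 ± 0.27, adjusted p = 0.00633).

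Itga1, which binds basement membrane and fibrillar collagen, was at 6.80 and 14.8 FPKM in the sheath, 13.6 and 20.2 in the papilla and 1.53 and 2.38 in fibroblasts. It reached 22.9 and 31.8 in the outer root sheath, with 2.92 and 1.38 in the matrix and 0.463 and 0.966 in melanocytes. Sheath and papilla overlapped and both lay above fibroblasts (1.93 ± 0.40, adjusted p = 0.0148 for the sheath; 2.59 ± 0.40, adjusted p = 0.00372 for the papilla). Itga2, a collagen and laminin receptor of epithelia, was at 0.256 and 0.305 FPKM in the sheath, 0.418 and 1.06 in the papilla, 2.25 and 1.97 in fibroblasts, 13.1 and 6.20 in the outer root sheath, 5.37 and 7.10 in the matrix and 1.02 and 3.31 in melanocytes. It was lower in the sheath than in fibroblasts (-1.28 ± 0.27, adjusted p = 0.0146), at levels near the filter of 1 FPKM. That call ended in the fit of all 12 libraries (adjusted p = 0.0613), with a pseudocount of 5 (-0.43) and after subtraction of the melanocyte share (-0.73, adjusted p = 0.0629). Itga10, known from cartilage, stayed between 0.185 and 1.19 FPKM in all 12 libraries and was called in no comparison.

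Among the alpha chains that recognise the Arg-Gly-Asp motif, Itga8 separated hair follicle mesenchyme from the rest. Itga8 (chromosome 2:12106632-12301922), the receptor for nephronectin, was at 16.9 and 32.1 FPKM in the sheath and 15.3 and 20.9 in the papilla, against 0.939 and 1.98 in fibroblasts and at most 0.347 in the other 6 libraries. Sheath and papilla overlapped, and all 4 of their libraries lay above the other 8. It was 3.34 ± 0.39 higher in the sheath (adjusted p = 0.000912) and 2.98 ± 0.39 higher in the papilla (adjusted p = 0.00158) than in fibroblasts, and sheath minus papilla was 0.36 ± 0.39 (adjusted p = 0.63).

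Itga5, the fibronectin receptor chain, was at 39.1 and 33.9 FPKM in the sheath, 23.6 and 17.1 in fibroblasts, 21.4 and 16.3 in the papilla, 9.36 and 5.61 in melanocytes, 3.97 and 2.47 in the outer root sheath and 3.47 and 2.15 in the matrix. The sheath libraries were the highest, but the difference missed the threshold (0.83, adjusted p = 0.086 against fibroblasts; 0.93, adjusted p = 0.056 against the papilla). Itgav, the alpha chain of the vitronectin receptors, was at 20.1 and 41.99 FPKM in the sheath, 16.9 and 27.7 in the papilla, 14.9 and 27.4 in fibroblasts, 27.9 and 32.9 in melanocytes, 14.7 and 16.1 in the outer root sheath and 9.29 and 7.75 in the matrix. The 3 dermal populations overlapped and Itgav was called in none of their comparisons. Itga2b, the platelet chain, was between 0 and 2.80 FPKM.

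Itga9 (chromosome 9:118606690-118901003), a receptor chain for tenascin-C and EMILIN1, marked the papilla. It was at 133 and 138 FPKM there, 27.8 and 37.3 in fibroblasts, 28.6 and 47.0 in melanocytes, 10.3 and 12.3 in the sheath and at most 0.600 in the epithelium. Both papilla libraries lay far above all others and both sheath libraries below fibroblasts. Sheath minus papilla was -3.48 ± 0.25 (adjusted p = 0.000123), papilla minus fibroblasts 2.04 ± 0.25 (adjusted p = 0.00113) and sheath minus fibroblasts -1.44 ± 0.25 (adjusted p = 0.00569). The last of these was -0.33 (adjusted p = 0.509) after subtraction of the melanocyte share, -1.16 (adjusted p = 0.0971) with rescaling as well, and -1.24 (adjusted p = 0.0535) without fibroblast replicate 2. Itga4, which binds VCAM1 and fibronectin, was low: 4.21 and 7.22 FPKM in fibroblasts, 1.56 and 3.11 in the sheath, 1.65 and 2.35 in melanocytes, 0.388 and 0.713 in the papilla, and at most 0.599 in the epithelium. It was lower in the papilla than in fibroblasts (-2.09 ± 0.35, adjusted p = 0.00547).

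Beta chains each pair with one or more alpha chains. Itgb1 (chromosome 8:128685654-128733200), the partner of most alpha chains above, was the highest beta chain in every library: 211 and 391 FPKM in the sheath, 95.6 and 144 in the papilla, 88.4 and 154 in fibroblasts, 79.7 and 123 in the outer root sheath, 77.5 and 111 in melanocytes and 34.5 and 43.9 in the matrix. Both sheath libraries lay above all others, yet the spread within the populations was wide. The difference missed the threshold (1.29 ± 0.38, adjusted p = 0.064 against fibroblasts; 1.28, adjusted p = 0.062 against the papilla). With all 12 libraries in the fit it passed (adjusted p = 0.0425 and 0.0417), as it did with the replicate number as a block (adjusted p = 0.000122 and 0.000117). Library 2 was the higher in all 6 populations for Itgb1, as for Fermt2 and Lims1. Library 1 was the higher in all 6 for Itga11, Itga5, Itga2b, Itgb5, Pxn, Tln2 and Zyx.

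Itgb3 (chromosome 11:104608000-104670476), which pairs with Itgav and binds vitronectin and osteopontin, was at 73.7 and 76.9 FPKM in the sheath, 14.5 and 13.5 in fibroblasts, 2.45 and 3.19 in the papilla, 4.57 and 2.61 in melanocytes and at most 0.352 in the epithelium. The sheath libraries agreed closely and lay above all others. It was 2.35 ± 0.25 higher than in fibroblasts (adjusted p = 0.000619) and 4.33 ± 0.25 higher than in the papilla (adjusted p = 7.93e-05, 20.1-fold). The papilla was below fibroblasts (-1.98 ± 0.25, adjusted p = 0.00136). Its other known partner, the platelet chain Itga2b, was at 1.29 and 0.803 FPKM in the sheath. Of the 4 platelet and megakaryocyte markers 2 are in the table, and the other one, Pf4, was at 14.3 and 11.1 FPKM in the sheath, 6.03 and 10.3 in the papilla, 0.671 and 2.24 in fibroblasts and 0 in the other 6 libraries. Its part in the Itgb3 values was not tested.

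Itgb5, a further partner of Itgav, was at 101 and 90.5 FPKM in the sheath, 58.5 and 35.6 in the papilla, 39.3 and 31.5 in fibroblasts, 20.5 and 12.6 in the outer root sheath, 16.9 and 15.4 in the matrix and 0.986 and 0.229 in melanocytes. Both sheath libraries were above the rest, by 1.42 ± 0.29 over fibroblasts (adjusted p = 0.0129) and 1.05 ± 0.29 over the papilla (adjusted p = 0.0428). The call against the papilla was lost in 8 of 13 alternatives, among them the fit of all 12 libraries (adjusted p = 0.0517), no filter (adjusted p = 0.0768), no trend (adjusted p = 0.057) and quantile scaling (0.85, adjusted p = 0.107). Itgb7 stayed at or below 1.41 FPKM, and Itgb2 and Itgb2l at or below 0.168 and 0.081.

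In the dermis, talins and vinculin, the links from the beta chain to actin, differed mainly by Vcl. Vcl (chromosome 14:20929398-21033676) was at 94.8 and 135 FPKM in the sheath, 38.4 and 49.4 in the papilla, 14.5 and 15.6 in fibroblasts, 49.1 and 60.5 in the outer root sheath, 22.3 and 22.0 in the matrix and 21.1 and 19.2 in melanocytes. The 3 dermal populations did not overlap, and the fibroblast libraries were the lowest of all 12. The sheath was 2.83 ± 0.26 above fibroblasts (adjusted p = 0.00035, 7.11-fold) and 1.36 ± 0.26 above the papilla (adjusted p = 0.0102). The papilla was 1.47 ± 0.26 above fibroblasts (adjusted p = 0.00715).

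Tln1, the widespread talin, was at 58.7 and 42.4 FPKM in the sheath, above all other libraries, which ranged from 14.6 to 38.0, and was called in none of the 6 comparisons (0.92, adjusted p = 0.07 for sheath minus fibroblasts). Tln2 was at 13.2 and 11.96 FPKM in the sheath, 15.2 and 12.2 in the papilla, 6.35 and 4.79 in fibroblasts, 9.03 and 7.41 in the outer root sheath, 8.71 and 8.70 in the matrix and 10.6 and 9.17 in melanocytes. Both fibroblast libraries were the lowest, and the sheath (1.06 ± 0.28, adjusted p = 0.039) and the papilla (1.16 ± 0.28, adjusted p = 0.0247) lay above them.

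The complex of integrin-linked kinase, PINCH and parvin differed between the dermal populations by some members and not by others. Lims2, the second PINCH adaptor, was at 60.5 and 50.8 FPKM in the sheath, 3.50 and 1.83 in the papilla, 2.61 and 1.42 in fibroblasts, 2.70 and 4.73 in melanocytes, 0.831 and 0 in the matrix and 0 and 0.075 in the outer root sheath. No other library came near the sheath. The difference was 4.25 ± 0.35 against fibroblasts (adjusted p = 0.000192, 19.1-fold) and 3.98 ± 0.35 against the papilla (adjusted p = 0.000269, 15.8-fold). Lims1, its near relative, ran from 14.8 to 50.5 FPKM over the 12 libraries, with overlap between every pair of neighbouring populations in the order of means, and was called in no comparison.

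Parva, the widespread parvin, was at 99.7 and 127 FPKM in the sheath, 45.1 and 41.9 in the papilla, 25.5 and 32.2 in fibroblasts, 43.9 and 59.2 in the outer root sheath, 18.1 and 19.9 in the matrix and 24.7 and 28.7 in melanocytes. It was higher in the sheath than in fibroblasts (1.93 ± 0.24, adjusted p = 0.0013) and papilla (1.35 ± 0.24, adjusted p = 0.00705). Parvb, its relative, ran the other way, at 1.35 and 1.09 FPKM in the sheath, 8.21 and 5.78 in the papilla, 8.63 and 5.83 in fibroblasts, 20.9 and 11.8 in melanocytes, 0.832 and 1.504 in the matrix and 0 and 0.159 in the outer root sheath. It was lower in the sheath than in the papilla (-1.83 ± 0.31, adjusted p = 0.00565) and in fibroblasts (-1.87 ± 0.31, adjusted p = 0.00515), but the latter became 0.72 (adjusted p = 0.164) after the melanocyte share was subtracted and 0.48 (adjusted p = 0.557) with rescaling. That share exceeded the Parvb value in fibroblast replicate 2, which was set to 0. Ilk itself was highest in the sheath, at 166 and 160 FPKM against 34.8 to 110.4 elsewhere, and was not called in the dermis (0.71, adjusted p = 0.069 against fibroblasts; 0.73, adjusted p = 0.06 against the papilla).

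**Figure D3:**
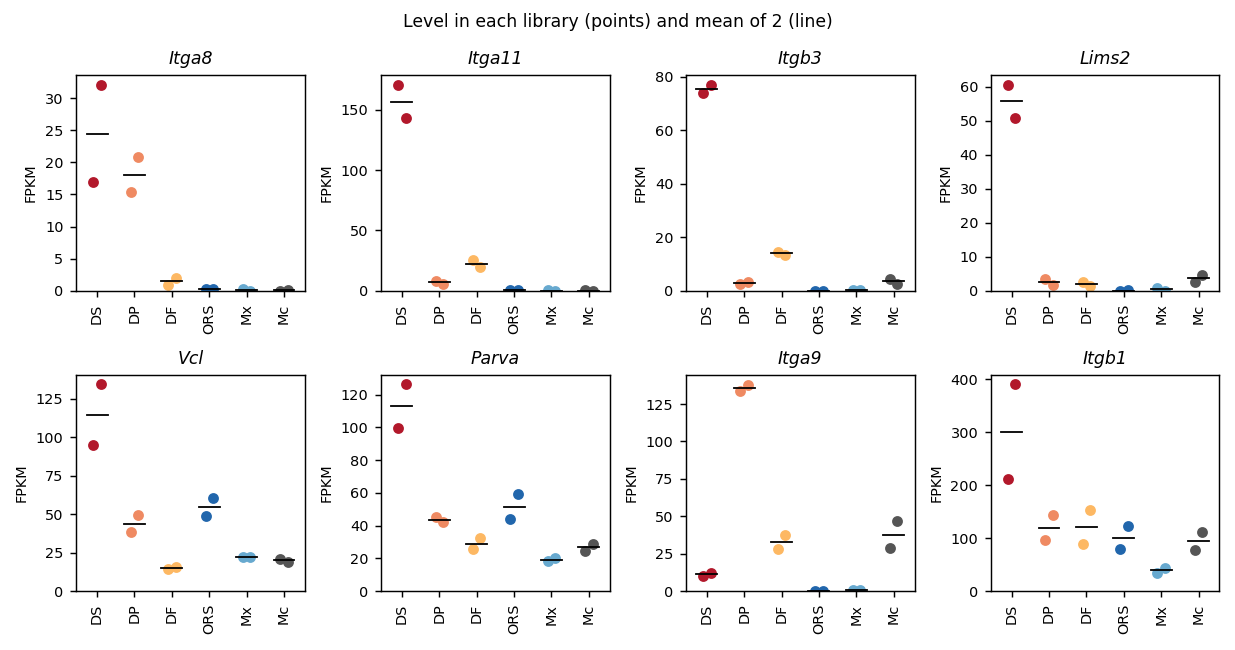
FPKM of 8 members in the 2 libraries (points) of each population, with the mean of the 2 as a line; every axis starts at 0. Itga11, Itgb3 and Lims2 are high in the dermal sheath (DS) alone, Itga8 in sheath and papilla (DP), Itga9 in the papilla, and Vcl, Parva and Itgb1 are highest in the sheath with lower levels in all other populations.

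Kindlins, which activate the beta chain together with talin, and the signalling members Ptk2 (focal adhesion kinase), Pxn (paxillin) and Zyx (zyxin, which gathers on tensed actin fibres) were not called in any dermal comparison. Fermt2, the kindlin of mesenchyme, was at 69.8 and 104.0 FPKM in the sheath, 59.2 and 80.5 in the papilla and 34.7 and 55.2 in fibroblasts, and the sheath overlapped the papilla. Ptk2 lay between 9.23 and 17.6, Pxn between 9.75 and 26.9, and Zyx between 30.7 and 69.7 FPKM in the 6 dermal libraries. Fermt3, the kindlin of blood cells, reached at most 0.669 FPKM in any library.

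Subtraction of the melanocyte share alone moved the median of all genes to 0.93 in sheath minus fibroblasts and 1.01 in papilla minus fibroblasts, and 29.6% and 34.6% of all genes were then called higher. Of the 12 calls in sheath minus fibroblasts it ended those of Itga2, Itga9 and Parvb. With rescaling, which moved the medians to 0.26 and 0.33, the sheath was still called above fibroblasts for Lims2 (5.13), Vcl (3.29), Itga8 (2.79), Tln2 (2.31), Itga11 (1.90), Parva (1.88) and Itgb3 (1.68) and below for Itga2 (-1.26). The calls of Itga1 (1.51), Itgb5 (0.56), Itga9 and Parvb ended. The subtracted share exceeded the Lims2 and Parvb values in fibroblast replicate 2, so none was left there. It also took most of the Tln2 value and most of the Vcl value in both fibroblast libraries. How far the differences of these genes rest on that was not tested. All 8 calls of papilla minus fibroblasts were kept under both, and with rescaling ran from -2.65 for Itgb3 to 2.43 for Itga8. Of the 12 calls in sheath minus fibroblasts 6 were kept under every alternative run, those of Lims2, Itga8, Vcl, Itga11, Itgb3 and Parva, and so were 5 of 9 in sheath minus papilla. Against fibroblasts, the calls of Itga2 and Tln2 ended without any of the 4 libraries (-1.34 to -1.21 and 0.88 to 1.23). So did Itga1 (1.42 without sheath replicate 2, 1.72 without fibroblast replicate 1) and Itgb5 (1.34 without sheath replicate 1, 1.26 without fibroblast replicate 2). Against the papilla, calls lost in this way were Itgb5 (0.97 and 1.13 without sheath replicate 1 or 2, 0.70 without papilla replicate 2), Itga6 (1.32 without sheath replicate 1, 1.23 without papilla replicate 2) and Vcl (1.11 without sheath replicate 2, 1.18 without papilla replicate 1). In papilla minus fibroblasts Tln2 (0.99 to 1.33, any of the 4 libraries) and Vcl (1.29 without papilla replicate 2) behaved likewise.

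Transcripts of other cell types were measured beside these members. Over 8 leukocyte markers the sheath libraries summed to 38.0 and 39.4 FPKM, the papilla to 14.8 to 20.7 and fibroblasts to 11.7 to 12.2. The leukocyte integrin chains Itgal, Itgam, Itgax and Itgad reached at most 0.748 FPKM in any library. The 4 pericyte markers summed to 42.7 to 54.2 FPKM in the sheath, 14.9 to 16.8 in the papilla and 21.9 to 25.9 in fibroblasts, with 2 of the 4 under 1 FPKM in both sheath libraries. The 5 endothelial markers summed to at most 14.3 in any dermal library. The part of these cells in the sheath values was not tested. Gene models overlap in the annotation for Itga8, Vcl, Lims2, Ilk, Tln1, Zyx, Itga1, Itga4, Itgav and Itgb4, and whether reads were counted by strand is not given in the sources used here.

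Outer root sheath was then compared with matrix, the other epithelial population. The outer root sheath had more of 10 members. These were the laminin receptor chains Itga6 and Itga3, the collagen receptor chain Itga1, the TGF-beta-activating beta chains Itgb6 and Itgb8, and the plaque members Fermt2, Zyx, Pxn, Parva and Vcl. No member was called lower. Of 33 members tested, 10 were called higher where 4.59% of 13974 genes were, and 0 lower where 2.51% were (limma). At an unadjusted p under 0.05, 1 member was lower, and with a pseudocount of 0.1 in place of 1 limma called 2 lower. The median difference was 0.74, against -0.03 over all genes. With the replicate number as a block Itgb1 was called higher too (1.32, adjusted p = 0.000439). Dermal sheath markers moved the same way, 3 of 4 called higher with a median of 2.67: Acta2 was at 36.7 and 59.1 FPKM in the outer root sheath and 3.33 and 2.43 in the matrix, and the 4 summed to 94.97 to 144 and 8.85 to 12.1. The part of sheath cells in these differences was not tested.

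Itga6, which joins Itgb4 in the hemidesmosome, was at 72.1 and 75.4 FPKM in the outer root sheath, 26.5 and 26.8 in the matrix, 13.6 and 19.6 in melanocytes, 12.7 and 12.3 in the dermal sheath, 7.96 and 8.86 in fibroblasts and 4.74 and 3.92 in the papilla. No 2 populations overlapped, and the outer root sheath was 1.43 ± 0.23 above the matrix (adjusted p = 0.00384). In the dermis, Itga6 was 1.34 ± 0.26 higher in the sheath than in the papilla (adjusted p = 0.0108). Itga3, the laminin receptor chain of keratinocytes, was at 47.8 and 38.5 FPKM in the outer root sheath and 17.7 in both matrix libraries, and between 0.322 and 3.41 in the other 8 (1.23 ± 0.33, adjusted p = 0.0477). The laminin receptor chain of muscle, Itga7, was at most 2.02 FPKM.

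Itgb4 was at 56.7 and 40.0 FPKM in the outer root sheath and 22.9 and 24.5 in the matrix, with 7.40 and 3.37 in fibroblasts, 3.70 and 1.502 in the papilla, 2.41 and 1.31 in the dermal sheath and 0.238 and 0.137 in melanocytes. The 2 epithelial populations did not overlap, but the difference missed the threshold (0.98, adjusted p = 0.2). Itgb6 was at 27.6 and 34.2 FPKM in the outer root sheath, 4.45 and 3.02 in the matrix and at most 0.611 elsewhere (2.76 ± 0.25, adjusted p = 0.000238). Itgb8 was at 10.5 and 11.5 FPKM in the outer root sheath, 1.29 and 2.92 in the matrix and at most 1.24 elsewhere (2.00 ± 0.39, adjusted p = 0.00959). Itgae, which binds E-cadherin, was at 1.44 and 2.04 FPKM in the outer root sheath and at most 0.746 elsewhere.

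Fermt1, the kindlin of epithelia, was at 30.5 and 36.3 FPKM in the outer root sheath, 17.5 and 21.6 in the matrix and at most 1.85 elsewhere, and did not differ at the threshold between the epithelial populations (0.74, adjusted p = 0.17). Fermt2 did: 31.7 and 44.4 FPKM in the outer root sheath against 6.01 and 6.53 in the matrix (2.41 ± 0.30, adjusted p = 0.000921), with 62.1 and 77.2 in melanocytes. The matrix was the only population with less Fermt2 than Fermt1 per transcript length in both libraries.

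Zyx was at 91.7 and 89.7 FPKM in the outer root sheath, 22.6 and 11.4 in the matrix and 37.8 and 15.7 in melanocytes (2.42 ± 0.41 over the matrix, adjusted p = 0.00463). Pxn was at 69.6 and 68.9, 22.3 and 16.9, and 41.3 and 37.9 in the same order (1.78 ± 0.27, adjusted p = 0.00225). Ptk2 was at 25.7 and 24.3, 21.8 and 20.4, and 19.9 and 23.7 (not called). For Zyx and Pxn both outer root sheath libraries were the highest of all 12. The other calls were Itga1 (3.20 ± 0.41, adjusted p = 0.000946, 9.18-fold), Parva (1.38 ± 0.23, adjusted p = 0.00451) and Vcl (1.26 ± 0.24, adjusted p = 0.00773). The call of Itga3 was lost in 8 of 12 alternatives: without any of the 4 libraries (1.08 to 1.39), with a pseudocount of 0.1 (adjusted p = 0.158), without a filter (adjusted p = 0.082) and with quantile or median scaling (adjusted p = 0.0593 and 0.0661). The call of Itgb8 ended without outer root sheath replicate 2 (1.94) or matrix replicate 1 (1.62). Calls also ended for Vcl (1.11 and 1.25 without outer root sheath or matrix replicate 2), Parva (1.17 without outer root sheath replicate 2) and Zyx (1.96 without matrix replicate 2).

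**Figure D4:**
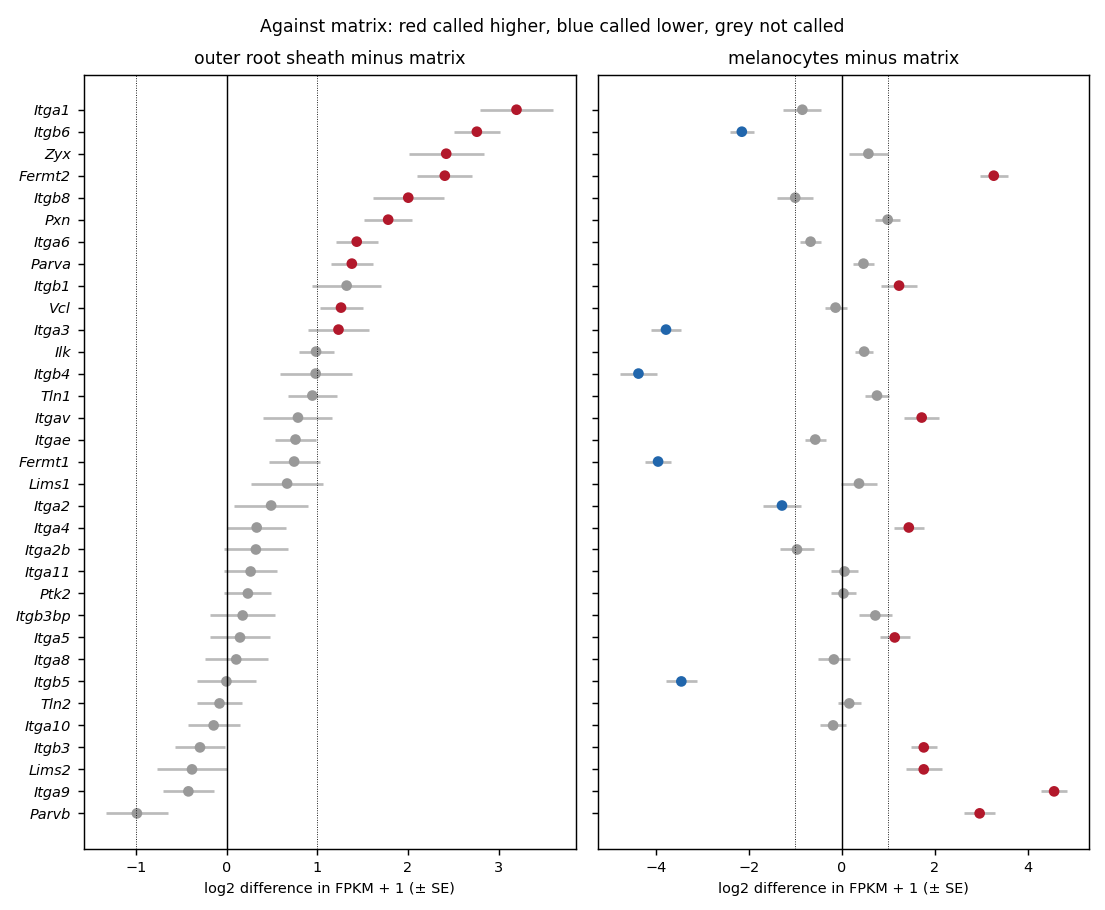
Difference of each of the 33 tested members on the log2(FPKM + 1) scale (points, bars of 1 SE) for outer root sheath minus matrix and melanocytes minus matrix, ordered by the first; colours as called, dotted lines at the threshold of 1. In the left panel the called members are all to the right of 0, while in the right panel Itga9 (4.57) and Itgb4 (-4.38) stand at opposite ends.

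Between dermal sheath and outer root sheath, which face each other across the basement membrane of the follicle, 24 of 33 members were called, 14 higher in the dermal sheath and 10 lower, where 20.3% and 16.6% of all genes were. Farthest above the outer root sheath were Itga11 (6.88 ± 0.29, adjusted p = 4.37e-08), Itgb3 (6.15 ± 0.28, adjusted p = 6.09e-08) and Lims2 (5.77 ± 0.38, adjusted p = 7.79e-07). Farthest below it were Itgb6 (-4.62 ± 0.25, adjusted p = 2.33e-07), Fermt1 (-4.40 ± 0.28, adjusted p = 6.26e-07) and Itga3 (-4.17 ± 0.33, adjusted p = 2.83e-06). Also higher in the dermal sheath were Itga8, Itga9, Itga5, Itgb5, Itgb1, Itga4, Fermt2, Ilk, Parva, Parvb and Vcl (1.04 to 4.27), and lower were Itgb4, Itgb8, Itga2, Itga6, Pxn, Itga1 and Itgae (-4.12 to -1.19).

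The median was 0.62, against 0.02 over all genes. Over all genes, fewer were called higher whichever dermal sheath or outer root sheath library was left out. That count was lowest without dermal sheath replicate 1 or outer root sheath replicate 2. Fewer members were called higher without dermal sheath replicate 2 or without outer root sheath replicate 1. The calls of Fermt2 (0.88 and 0.93), Itgb1 (1.09 and 1.22), Parva (0.95 and 0.91), Parvb (1.13 and 0.94) and Vcl (0.79 and 0.89) ended in both. Those of Itga4 (0.90) and Itgae (-0.98) ended in the first. Parvb also ended without dermal sheath replicate 1 (0.96) or outer root sheath replicate 2 (1.15), Itga1 without dermal sheath replicate 1 (-0.82) or outer root sheath replicate 2 (-1.10), and Itga4 without the latter (1.02). In the outer root sheath, where sheath markers were measured too, Itga11, Itgb3 and Itga8 were at most 0.348 FPKM.

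Melanocytes were compared with the matrix, the epithelium in which they lie. They had more of Itga9, Fermt2, Parvb, Itgb3, Lims2, Itgav, Itga4, Itgb1 and Itga5 and less of Itgb4, Fermt1, Itga3, Itgb5, Itgb6 and Itga2. Of 33 members 9 were called higher and 6 lower, where 14.5% and 14.1% of all genes were, with medians of 0.16 and -0.03. The differences farthest from 0 were those of Itga9 (4.57 ± 0.28, adjusted p = 5.87e-07), Itgb4 (-4.38 ± 0.40, adjusted p = 9.24e-06), Fermt1 (-3.95 ± 0.28, adjusted p = 1.61e-06), Itga3 (-3.78 ± 0.33, adjusted p = 7.06e-06), Itgb5 (-3.45 ± 0.33, adjusted p = 1.32e-05), Fermt2 (3.27 ± 0.30, adjusted p = 1e-05) and Parvb (2.97 ± 0.34, adjusted p = 5.12e-05).

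The other calls were Itgb3 (1.77 ± 0.28), Lims2 (1.77 ± 0.38), Itgav (1.72 ± 0.38), Itga4 (1.44 ± 0.33), Itgb1 (1.23 ± 0.38), Itga5 (1.14 ± 0.33), Itgb6 (-2.15 ± 0.25) and Itga2 (-1.29 ± 0.41), with adjusted p from 6.35e-05 to 0.0324. Parvb was the member whose level in melanocytes exceeded that in all other populations in both libraries. Itgb1 lost its call without matrix replicate 1 (1.06), matrix replicate 2 (1.40) or melanocyte replicate 2 (0.98). Itga2 lost it without matrix replicate 1 (-1.46), matrix replicate 2 (-1.11) or melanocyte replicate 1 (-0.74), and Itga5 without matrix replicate 2 (0.89) or melanocyte replicate 1 (0.82).

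Since FPKM is scaled to length, the mix of chains could be set out within each library as a share of summed alpha or beta chain FPKM. Itga11 made up 60.2% and 47.9% of alpha chain FPKM in the dermal sheath, and Itga9 60.5% and 57.8% in the papilla, so that each of these populations was led by a single alpha chain. Fibroblasts were led by Itga9 (23.8% and 29.0%), followed by Itga11 (21.4% and 15.4%), Itgav (12.7% and 21.3%) and Itga5 (20.1% and 13.3%), whose order differed between the 2 libraries. After subtraction of the melanocyte share Itga11 led in fibroblast replicate 1, while Itga9 still led in replicate 2. Itga11 held 35.7% and 23.1%, Itga5 28.5% and 16.1%, Itga9 14.0% and 24.3% and Itgav 0.543% and 16.4%. Of Itgav only 0.380 FPKM was left in replicate 1, against 14.1 in replicate 2. The outer root sheath was led by Itga6 (40.1% and 42.9%) and Itga3 (26.6% and 21.9%), the matrix by Itga6 (38.1% and 41.0%), and melanocytes by Itga9 (34.0% and 41.5%) and Itgav (33.2% and 29.0%). Itgb1 led the beta chains in all 12 libraries, from 40.8% in an outer root sheath library to 96.1% in a melanocyte library. Beside it stood Itgb3 (18.9% and 13.7%) and Itgb5 in the dermal sheath, and Itgb4 (29.0% and 18.1%) and Itgb6 (14.1% and 15.5%) in the outer root sheath. Summed alpha chain FPKM was 283.7 and 298.0 in the dermal sheath, the highest, and 69.4 and 65.4 in the matrix, the lowest. These shares are of transcripts, not of receptors.

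**Figure D5:**
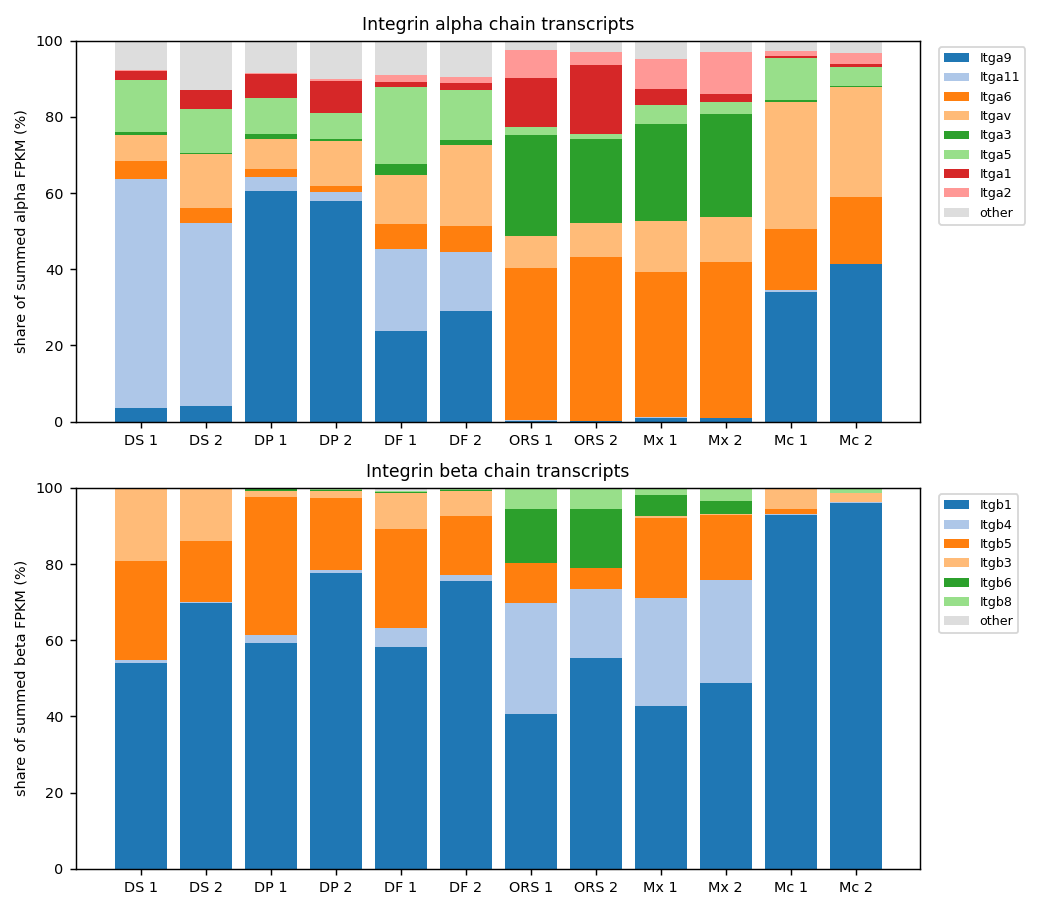
Share of summed alpha chain FPKM (upper panel) and beta chain FPKM (lower panel) held by each chain in each of the 12 libraries (DS dermal sheath, DP dermal papilla, DF dermal fibroblasts, ORS outer root sheath, Mx matrix, Mc melanocytes), in percent. Itga11 fills 60.2% and 47.9% of the sheath bars and Itga9 60.5% and 57.8% of the papilla bars, and Itgb1 fills over 90% of both melanocyte bars.

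The genes around the members were read from 3 further lists. Of 40 other plaque proteins 38 were tested, and 13 were higher in the dermal sheath than in fibroblasts and 14 than in the papilla, with medians of 0.78 and 0.67 (34.2% and 36.8% of those tested, against 7.56% and 7.96% of all genes). None, 0 of 38, was lower in either (limma), and 3 and 1 were lower at an unadjusted p under 0.05. Among those farthest from 0 against fibroblasts were the tensin Tns3 (3.25), the alpha-actinin Actn1 (3.25) and nexilin Nexn (2.97), and against the papilla Ablim1 (3.38), Csrp1 (2.93), palladin Palld (2.60) and Pdlim5 (2.06). Papilla minus fibroblasts gave 3 higher (7.89%, near the 8% of all genes) and 6 lower (15.8%, against 7.16%), among them Tns3 (3.21), Palld (-1.97) and Actn1 (1.48). After subtraction of the melanocyte share with rescaling, 14 were higher and 3 lower in sheath minus fibroblasts and 8 higher and 5 lower in papilla minus fibroblasts, where 11.3% and 13.6% of all genes were higher and 4.89% and 6.85% lower.

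For integrin ligands, 34 of 38 were tested in the dermis, and 12 were higher and 2 lower in the sheath than in fibroblasts, led by Ctgf (3.61), the basement membrane collagen chains Col4a2 (3.52) and Col4a1 (3.26) and nidogen Nid1 (3.49). Against the papilla 16 were higher and 4 lower, led by periostin Postn (4.59), Col1a1 (4.07), thrombospondin Thbs1 (3.87) and, lower, Ltbp1 (-3.16). Papilla minus fibroblasts gave 9 higher and 10 lower, with Col1a1 (-4.09), fibronectin Fn1 (-3.97), Ltbp1 (3.76) and Egfl6 (-2.99). Medians were 0.46, 0.93 and -0.30. In the 3 comparisons 35.3%, 47.1% and 26.5% were called higher, against 7.56%, 7.96% and 8% of all genes, and 5.88%, 11.8% and 29.4% lower, against 6.6%, 7.56% and 7.16%. The rescaled subtraction left 8 ligands higher and 4 lower in sheath minus fibroblasts, with a median of -0.18, and 5 higher and 11 lower in papilla minus fibroblasts. In the first these were 23.5% and 11.8% of those tested, against 11.3% and 4.89% of all genes. In the second they were 14.7% and 32.4%, against 13.6% and 6.85%, so the share called higher was near that of all genes. Ctgf, Col4a2, Col4a1 and Nid1 were still called higher in the sheath (2.41 to 2.85). Of 6 hemidesmosome genes tested in the dermis, Plec and Lamb3 were higher in the sheath than in fibroblasts (1.84 and 1.37) and papilla (2.06 and 1.63), and Dst was lower than in fibroblasts (-1.21). Dst was at 138 and 145 FPKM in melanocytes and 55.0 and 58.4 in fibroblasts. The share to be subtracted exceeded both fibroblast values, so no Dst was left in fibroblasts. Its call as higher in the sheath after either subtraction (4.64) follows from that and does not measure its level in fibroblasts. With rescaling the calls of Plec (1.09, adjusted p = 0.227) and Lamb3 (0.92, adjusted p = 0.0712) against fibroblasts ended.

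In the epithelium the called members of these lists were nearly all higher in the outer root sheath. Of 36 ligands tested, 16 were higher than in the matrix (44.4%, against 4.59% of all genes) and 0 lower (limma; 0 lower at an unadjusted p under 0.05; median 0.90), with Thbs1 (3.18), tenascin Tnc (3.00), Col4a1 (2.97) and Egfl6 (2.80) farthest from 0. Of 38 plaque proteins 13 were higher and 1 lower (median 0.72), with Tns1 (2.53), Sorbs3 (2.42), Enah (2.12) and Palld (1.96). Of 7 hemidesmosome genes 5 were higher and 0 lower (limma; 0 lower at an unadjusted p under 0.05; median 1.60), among them Dst (2.23), Col17a1 (1.96), Lamb3 (1.60) and Lama3 (1.13).

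Dermal sheath minus outer root sheath gave 21 ligands higher and 6 lower, 12 plaque proteins higher and 4 lower, and 1 hemidesmosome gene higher and 5 lower, where 20.3% of all genes were higher and 16.6% lower. The ligands called lower (16.7%) were at that share and the plaque proteins called lower (10.5%) below it. Collagens Col1a1 (10.91), Col1a2 (9.9996), Col6a1 (8.45) and Col6a3 (8.07) led the ligands. Tns4 (-4.39), Tgfb1i1 (3.10), Nexn (3.10) and Enah (-2.82) led the plaque proteins, and the hemidesmosome genes included Col17a1 (-4.89), Lama3 (-4.44) and Lamb3 (-1.78). Melanocytes minus matrix gave 10 ligands higher and 13 lower, 9 plaque proteins higher and 13 lower, and 1 hemidesmosome gene higher and 5 lower, where 14.5% of all genes were higher and 14.1% lower. These counts were 27.8% and 36.1% of the ligands and 23.7% and 34.2% of the plaque proteins tested. Among the ligands the values farthest from 0 were those of Egfl6 (5.20), Lama4 (4.17), Lama5 (-4.08) and Fn1 (-3.40). Among the plaque proteins they included those of Tns4 (-4.97), Sorbs3 (3.59) and Ablim1 (-3.14), and in the hemidesmosome those of Col17a1 (-4.03), Dst (3.25) and Lama3 (-3.01).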

How the data were processed

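The authors deposited 1 column of FPKM per library. TopHat2 2.0.3, Bowtie2, Cufflinks 2.1.1 and the build mm10 are named in the submitters' processing notes, without role or order, and the FPKM unit was read from the last tool and the values. Low values did not fall on whole reads (at most 1.45% of low genes in any population on the commonest ratio, tolerance 1%). The depth of each library is therefore unknown, and errors cover the spread of 2 libraries alone.

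Members and lists were chosen with earlier results of these data known. FPKM entered as log2(FPKM + 1) without further scaling, where a gene reached 1 FPKM or more in 2 or more libraries of a fit. Tests were run in limma 3.58.1 (R 4.3.3), two-sided, with an intensity trend and Benjamini-Hochberg adjustment over all genes tested. The dermal comparisons came from a fit of the 6 dermal libraries (3 residual degrees of freedom) and the others from a fit of all 12 (6 degrees). The fitting steps were tested on simulated data with known differences, and the outcome is not reported here. Noise there was independent between libraries, unlike the replicate deviations of the real data. Only genes above a set mean level were changed, so low members were not covered.

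Values in every library are given for members called in a dermal or matrix comparison and for a fixed set including Itgb1, Itgav, Itga5, Itga6 and Itgb4. Of the other lists, up to 4 called genes a comparison with the largest difference are named, and the members of each list are counted. Some genes that this rule names are not reported here. Alternatives were pseudocounts of 0.1 and 5, no filter, quantile or median scaling, other libraries in the fit, the replicate number as a block, no trend, each library left out, and subtraction of melanocyte RNA, which was applied to the other lists and to chain shares after seeing the data. Gene coordinates are from GENCODE M21 on mm10 and promoters from RefSeq (GRCm38.p6), searched with Python 3.11.15.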

Additional observations from a re-analysis of the deposited data

How the results depend on the processing

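Of the 78 calls of members over the 6 comparisons, 44 were kept under every alternative run for their comparison. Counts of called members moved by over 1.5 times as follows, and except where stated the cause was not tested. With log2(FPKM + 5), in which low genes differ less by construction, 1 member was lower in sheath minus fibroblasts and 1 in sheath minus papilla, and 5 were higher in melanocytes minus matrix. With log2(FPKM + 0.1), 2 were lower in outer root sheath minus matrix, and quantile scaling left 8 higher in dermal sheath minus outer root sheath. Over all genes log2(FPKM + 5) also gave fewer of these calls, 442, 468 and 1217 against 873, 999 and 2025 in the main fits. Over all genes log2(FPKM + 0.1) gave 288 lower against 351, and quantile scaling 2445 higher against 2831. Subtraction of melanocyte RNA without rescaling, which moved the median of all genes to 0.93 and 1.01, gave 16 higher and 0 lower (limma) in sheath minus fibroblasts and 9 higher in papilla minus fibroblasts (53.3% and 30% of members, where 29.6% and 34.6% of all genes were higher), and with rescaling 5 were lower in the latter. Leaving out a library gave 1 to 2 lower in sheath minus fibroblasts, 3 to 4 higher in papilla minus fibroblasts, 6 to 9 higher in outer root sheath minus matrix and 8 to 14 higher in dermal sheath minus outer root sheath. In each of these comparisons and directions, fewer of all genes were called too, whichever of its libraries was left out. How far the member counts followed from that was not tested. With 1 library left in a population, that library is assumed to vary like the other populations.

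Directions that turned belonged, but for Parvb, to differences that were not called. Parvb in sheath minus fibroblasts became 0.72 with subtraction and 0.48 with rescaling, where none was left in fibroblast replicate 2. In papilla minus fibroblasts Itgb1 became -0.070 with median scaling and -0.13 with rescaled subtraction, Itga5 0.16 with subtraction, and Itga6 1.71 with subtraction and 1.42 with rescaling. Subtraction left only 0.0247 and 1.57 FPKM of Itga6 in the fibroblast libraries, which had held 7.96 and 8.86. How far the turned direction of Itga6 rests on that was not tested. Over left-out libraries the ranges in papilla minus fibroblasts were -0.39 to 0.41 for Itgb1, -0.32 to 0.12 for Itga5 and -0.32 to 0.52 for Itgav. In sheath minus fibroblasts Itgav ran from -0.010 to 1.02. Sheath minus papilla gave -0.078 to 0.81 for Itga8, -0.11 to 0.92 for Itgav and -0.74 to 0.16 for Itgb4. Outer root sheath minus matrix gave -0.11 to 0.41 for Itga5 and -0.095 to 0.30 for Itga8, and melanocytes minus matrix -0.37 to 0.030 for Itga8 and -0.16 to 0.28 for Itga11.

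Libraries share only replicate numbers 1 and 2, and the deviations of library 2 from library 1 correlated across genes between populations at r = 0.19 to 0.54 over 15 pairs. Pairs of dermal populations were at 0.48 to 0.54 and all other pairs at 0.19 to 0.32. The main fit of the dermal libraries held no replicate block. With the replicate block, higher and lower members were 10 and 5 in sheath minus fibroblasts, 9 and 2 in sheath minus papilla, 5 and 3 in papilla minus fibroblasts, 11 and 0 in outer root sheath minus matrix (limma), 14 and 10 in dermal sheath minus outer root sheath and 9 and 7 in melanocytes minus matrix. Over all 13219 genes tested in the dermis they were 1178 and 1071, 1184 and 1207, and 1240 and 1085, in the same order. Over the 13974 genes of the other comparisons they were 844 and 480, 2943 and 2419, and 2127 and 2098. All of these counts over all genes were above those without the block. Calls gained under it were Itgb1 in both sheath comparisons (1.29 and 1.28) and in outer root sheath minus matrix (1.32), Itga4 in both sheath comparisons (-1.01 and 1.07), Itgb4 in sheath minus fibroblasts (-1.11) and Itgb8 in melanocytes minus matrix (lower, adjusted p = 0.0276), and none was lost. The unknown depth limits what can be said of members below 1 FPKM.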
